A study of Schizosaccharomyces pombe with 6 samples.

Results

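The genes described here encode subunits of the fission yeast proteasome, the enzymes that pass ubiquitin to substrates, and the proteases that take it off again. They are the probe sets whose single gene symbol in the platform annotation starts with rpt, rpn, pre, pup, pts, ubc or ubp followed by a digit. That rule uses names alone and took 52 of the 2936 Schizosaccharomyces pombe probe sets that were tested: 8 subunits of the proteasome core particle (pre, pup and pts), 6 ATPases of its regulatory cap (rpt), 11 other cap subunits (rpn), 11 ubiquitin-conjugating or E2 enzymes (ubc) and 16 ubiquitin-specific proteases (ubp). Each of the 52 genes had 1 probe set, and each lay above the background level on all 6 arrays. One further probe set, shared by the paralogues rpn501 and rpn502, matched by name but carries 2 symbols, so it is not a member and its copies cannot be told apart.

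RNA was taken from growing cells in rich medium and hybridised to Affymetrix yeast arrays, with 2 arrays for each of 3 genotypes: fkh2delta, which lacks the forkhead transcription factor gene fkh2, fkh2-S2A, which carries a mutant allele whose change the labels do not spell out, and wild type. The labels give fkh2-S2A and wild type one strain name and fkh2delta another, so the deletion and the strain cannot be told apart. The labels are silent on separate cultures for the 2 arrays of a genotype, and p-values here measure only how arrays scatter, which may be technical. Values are log2 signals as the authors deposited them, differences are log2 differences between genotype means with the standard error (SE) of a limma fit over all 6 arrays, and a gene passed the test when its Benjamini-Hochberg adjusted p over all 2936 probe sets was below 0.05.

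The proteasome degrades proteins that carry chains of the small protein ubiquitin. An E1 enzyme activates ubiquitin, an E2 enzyme takes it over, and an E3 ligase directs it to a substrate; the cap of the proteasome then binds the chain, unfolds the substrate with its ring of ATPases and threads it into the barrel-shaped core, where the peptide bonds are cut. Ubiquitin-specific proteases recycle ubiquitin or reverse the modification. In dividing cells the same machinery destroys cyclin and securin at the end of mitosis, and Fkh2 helps to time the transcription of genes used in mitosis.

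For fkh2 itself the signal was 4.34 and 4.05 in fkh2delta and 7.47 and 7.76 in fkh2-S2A, against 7.53 and 7.39 in wild type. It thus marks fkh2delta, below a background level of 5.17 to 5.35, while the fkh2-S2A and wild-type values overlap and do not show which arrays carry the allele. Several measures moved with the groups, and their part in the results was not tested except where a value is given. The mean 3′ minus 5′ difference of 6 control genes, a measure of RNA quality, was 1.53 and 1.61 in fkh2delta and 1.35 and 1.24 in fkh2-S2A, against 1.27 and 1.27 in wild type. Signal also moved with gene length, and the slope of the deviation from the mean over arrays was -0.073 and -0.059 per doubling in fkh2delta and 0.070 and 0.11 in fkh2-S2A, against -0.034 and -0.010 in wild type. The wild-type arrays also differed between themselves: 40 of the 52 genes were lower on replicate 2 than on replicate 1, with a median gap of -0.12, against 54.0% of all probe sets and a median gap of -0.02.

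**Figure D1:**
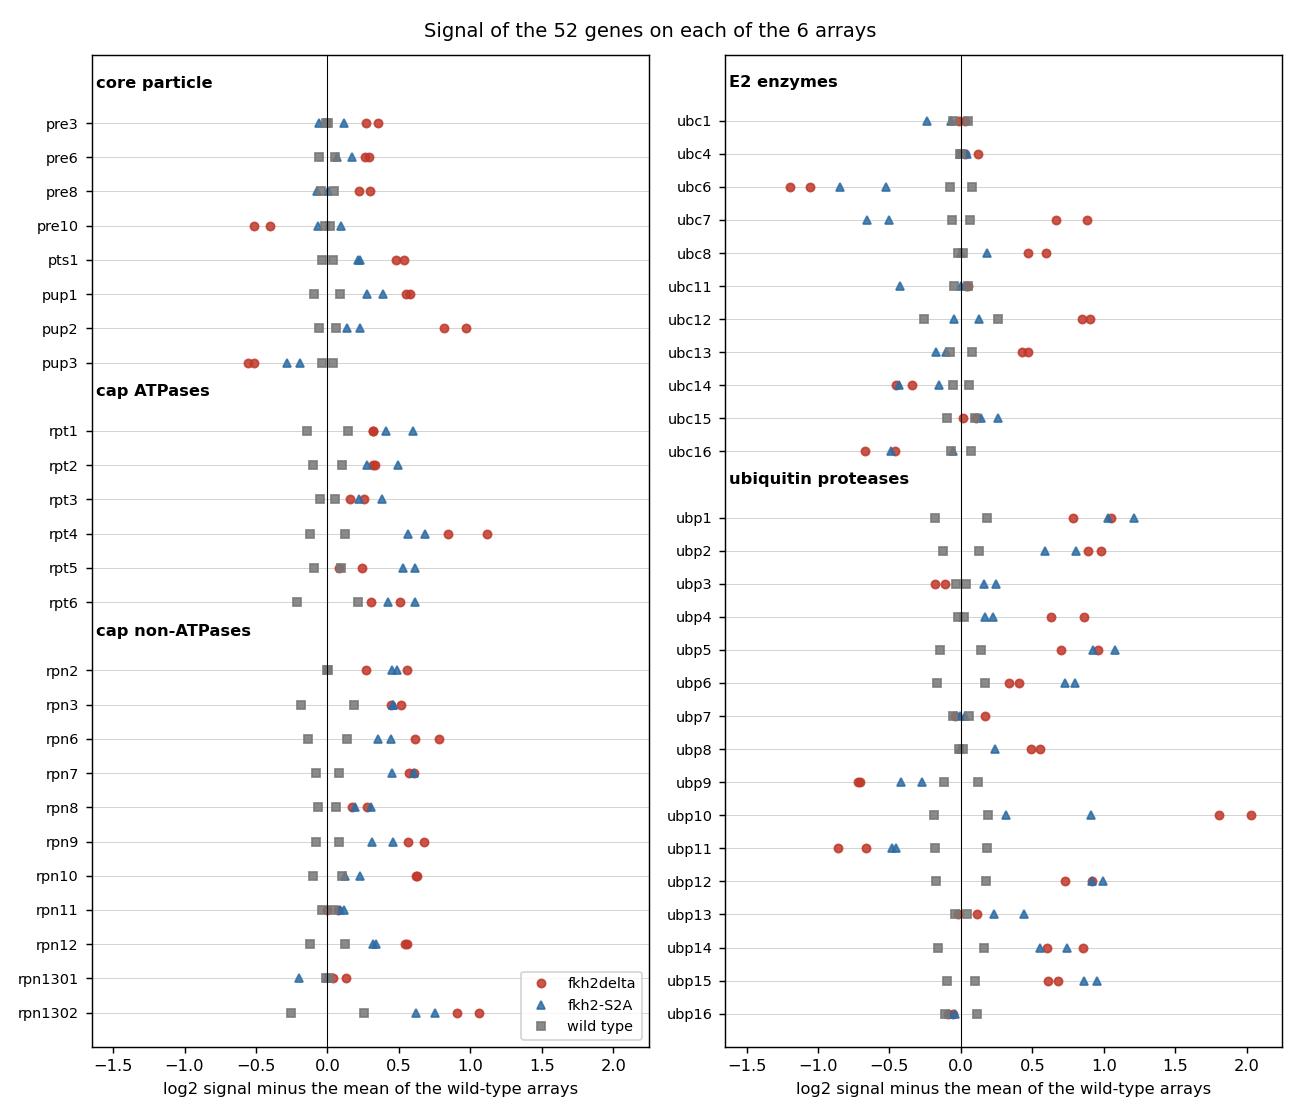
Log2 signal of each of the 52 genes on each of the 6 arrays, minus the mean of the wild-type arrays; circles are fkh2delta, triangles fkh2-S2A and squares wild type. Most cap genes and many ubp genes lie to the right of wild type in both mutants, ubc6, ubp9 and ubp11 lie to the left in both, and ubc7 lies to the right in fkh2delta and to the left in fkh2-S2A.

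Setting fkh2delta against wild type asks whether these genes differ in the strain lacking fkh2. More of them were higher than lower. In fkh2delta 32 of the 52 genes rose and 7 fell, which is 61.5% and 13.5%, against 40.4% of all probe sets called higher and 23.6% called lower. In all 39 of the 52 passed, against 64.0% of all probe sets, and 44 had arrays that did not overlap with wild type, against 87.1% of all probe sets. Their median difference was 0.39, against 0.16 over all probe sets, and 35 of the 52 lay above the median of all. The general shift of 0.16 was 0.03 when each array was centred on its median. Then 25 of the genes were higher and 8 lower, against 979 (33.3%) and 908 of the 2936 probe sets. Sizes were modest: the median size of a called difference was 0.59, and only ubp10 and ubc6 passed with a difference of at least 1, a factor of 2.

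All 8 core particle genes that the naming rule took passed in fkh2delta, against 64.0% of all probe sets. Of them 6 were higher and 2 lower, which is 75% and 25%, against 40.4% and 23.6% of all probe sets. The core is a stack of rings built from related alpha and beta subunits, and the genes are named after their Saccharomyces cerevisiae counterparts. The highest rise was pup2, an alpha subunit gene, at 13.27 and 13.43 in fkh2delta and 12.69 and 12.60 in fkh2-S2A, against 12.52 and 12.40 in wild type. Its fkh2delta arrays stood apart from the other 4, with a difference of 0.89 ± 0.10 from wild type (adjusted p = 0.000109, n = 2 arrays per genotype, limma). The beta subunit gene pup1 gave 12.39 and 12.36 in fkh2delta and 12.09 and 12.20 in fkh2-S2A, against 11.90 and 11.72 in wild type (0.57 ± 0.10 in fkh2delta, adjusted p = 0.0013). Its fkh2-S2A arrays lay between the others, but their difference from fkh2delta (-0.23 ± 0.10) did not pass. Another beta subunit gene, pup3, ran the other way, at 12.22 and 12.18 in fkh2delta and 12.45 and 12.54 in fkh2-S2A, against 12.69 and 12.77 in wild type (-0.53 ± 0.09 in fkh2delta, adjusted p = 0.00109).

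Among the other core genes pts1, the gene of the beta subunit with chymotrypsin-like activity, rose by 0.51 ± 0.09 in fkh2delta and the alpha subunit gene pre10 changed by -0.46 ± 0.10. The smallest core rises were pre3 (0.31 ± 0.10), pre6 (0.27 ± 0.10) and pre8 (0.26 ± 0.10). These 3 calls ended when the arrays were centred on their medians, which left 3 core genes higher and 2 lower. The median of the core genes was then 0.17, against 0.29 as deposited, and 64.3% of all probe sets passed. With p-values adjusted over all probe sets except controls, 4 core genes were higher and 2 lower, against 58.2% of all probe sets called. The core thus held genes that rose and genes that fell, with the share that fell near the 23.6% of all probe sets. Of the proteasome subunit members pup3 and pre10 were the 2 that were lower.

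The cap genes were higher or did not pass in fkh2delta, with 12 of 17 called higher and 0 lower (limma; 0 at an unadjusted p below 0.05). Of all probe sets 40.4% were higher and 23.6% lower. Among the ATPase genes, whose products form the ring that unfolds substrates, 4 of 6 rose and the median was 0.32. The rise of rpt4 was the highest, at 13.03 and 13.30 in fkh2delta and 12.87 and 12.75 in fkh2-S2A, against 12.31 and 12.07 in wild type (0.98 ± 0.13 in fkh2delta, adjusted p = 0.000209, 1.97-fold). Both mutants lay above both wild-type arrays for this gene. The rises of rpt6 (0.40 ± 0.15), rpt2 (0.33 ± 0.11) and rpt1 (0.32 ± 0.12) were smaller, and all 3 calls ended with median centring or without wild-type replicate 2, which each left rpt4 alone. The differences of rpt3 (0.21 ± 0.10) and rpt5 (0.16 ± 0.11) did not pass.

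Among the other cap subunits 8 of 11 genes rose in fkh2delta, which is 72.7%, against 40.4% of all probe sets. Their median was 0.55, against 0.16 over all probe sets. The highest was rpn1302, one of 2 genes for the ubiquitin receptor Rpn13, at 9.90 and 10.06 in fkh2delta and 9.62 and 9.75 in fkh2-S2A, against 9.25 and 8.74 in wild type (0.98 ± 0.16, adjusted p = 0.000651). Its paralogue rpn1301 read 11.28 and 11.37 in fkh2delta and 11.24 and 11.04 in fkh2-S2A, against 11.23 and 11.25 in wild type, and did not pass (0.08 ± 0.10). Whether the 2 paralogues differ in their response was not tested. Genes of the lid, the part of the cap that takes ubiquitin off incoming substrates, made up most of the rest.

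The lid gene rpn6 gave 12.78 and 12.95 in fkh2delta and 12.61 and 12.52 in fkh2-S2A, against 12.30 and 12.03 in wild type (0.70 ± 0.12 in fkh2delta, adjusted p = 0.000981). The lid gene rpn9 gave 12.85 and 12.96 in fkh2delta and 12.59 and 12.74 in fkh2-S2A, against 12.37 and 12.20 in wild type (0.62 ± 0.11). For rpn10, which encodes another ubiquitin receptor, the fkh2delta arrays read 12.39 and 12.39 and the fkh2-S2A arrays 11.99 and 11.89, against 11.87 and 11.66 in wild type (0.62 ± 0.10). All of these stood above wild type on every mutant array, and rpn10 was the one of the 3 whose rise did not pass in fkh2-S2A. Smaller rises were those of rpn7 (0.59 ± 0.10), rpn12 (0.55 ± 0.11) and rpn3 (0.48 ± 0.13) of the lid and of rpn2 (0.41 ± 0.11), which encodes a large scaffold subunit. The lid gene rpn8 (0.23 ± 0.10) did not pass, nor did its partner rpn11 (0.03 ± 0.09), which encodes the deubiquitinating enzyme of the lid. The probe set that rpn501 and rpn502 share read 13.37 and 13.52 in fkh2delta and 13.30 and 13.29 in fkh2-S2A, against 12.98 and 12.69 in wild type.

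Of the E2 genes 4 of 11 rose in fkh2delta and 3 fell, which is 36.4% and 27.3% and near the 40.4% and 23.6% of all probe sets. Their median was 0.06, or -0.06 with median centring. The genes ubc6 and ubc7, whose counterparts in Saccharomyces cerevisiae are known for protein degradation at the endoplasmic reticulum, changed in opposite directions. The deepest fall was ubc6, a membrane-anchored E2, at 9.50 and 9.36 in fkh2delta and 9.72 and 10.04 in fkh2-S2A, against 10.48 and 10.64 in wild type (-1.13 ± 0.13, adjusted p = 0.000103). Its partner at that membrane, ubc7, read 12.36 and 12.57 in fkh2delta and 11.03 and 11.19 in fkh2-S2A, against 11.75 and 11.63 in wild type. That is a rise of 0.77 ± 0.11 in fkh2delta (adjusted p = 0.000415), with no overlap between any 2 genotypes.

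The gene of the E2 for the ubiquitin-like protein Nedd8, ubc12, read 6.97 and 7.03 in fkh2delta and 6.08 and 6.25 in fkh2-S2A, against 6.38 and 5.87 in wild type (0.88 ± 0.16 in fkh2delta, adjusted p = 0.00129). After quantile normalization its difference was 0.14 and did not pass. Other rises were ubc8 (0.53 ± 0.10), whose counterpart in Saccharomyces cerevisiae serves the GID ligase, and ubc13 (0.45 ± 0.10), whose product builds ubiquitin chains used in DNA damage tolerance. The falls besides ubc6 were ubc16 (-0.57 ± 0.15) and ubc14 (-0.40 ± 0.12). The 2 E2 genes known for work with the anaphase promoting complex, the ligase that ends mitosis, did not pass: ubc4 read 14.21 and 14.31 in fkh2delta and 14.22 and 14.18 in fkh2-S2A, against 14.19 and 14.18 in wild type, and ubc11 differed from wild type by 0.04 ± 0.14 in fkh2delta. Nor did ubc15 (0.06 ± 0.11) and ubc1 (0.01 ± 0.10).

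Among the ubiquitin-specific proteases 10 of 16 genes rose in fkh2delta and 2 fell, which is 62.5% and 12.5%, against 40.4% and 23.6% of all probe sets. Their median was 0.58, against 0.16 over all probe sets. The widest difference of all 52 genes was in ubp10, at 9.79 and 10.01 in fkh2delta and 8.89 and 8.30 in fkh2-S2A, against 8.17 and 7.80 in wild type (1.92 ± 0.20, adjusted p = 6.48e-05, 3.78-fold). The next were ubp2, at 10.42 and 10.51 in fkh2delta and 10.33 and 10.11 in fkh2-S2A, against 9.65 and 9.40 in wild type (0.94 ± 0.12), and ubp1, at 8.77 and 9.04 in fkh2delta and 9.02 and 9.20 in fkh2-S2A, against 8.17 and 7.81 in wild type (0.92 ± 0.15). For ubp2 and ubp1 both mutants lay well above wild type, while for ubp10 the fkh2delta arrays stood apart from the rest.

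Further rises in fkh2delta were ubp12 (0.83 ± 0.13), whose product is known as a partner of the COP9 signalosome, ubp5 (0.83 ± 0.13), which encodes a Golgi-associated protease, ubp4 (0.75 ± 0.11), ubp14 (0.73 ± 0.14), ubp15 (0.64 ± 0.10), ubp8 (0.52 ± 0.11), which encodes the deubiquitinase of the SAGA transcription complex, and ubp6 (0.37 ± 0.12), whose product binds the proteasome. The falls were ubp11 (-0.76 ± 0.13) and ubp9 (-0.71 ± 0.11). Values for ubp3 (-0.15 ± 0.09), ubp7 (0.06 ± 0.11) and ubp16 (-0.08 ± 0.11) did not pass, nor did that of the gene listed as ubp13 (0.04 ± 0.11), whose current symbol is pan2 and whose product is a subunit of an mRNA deadenylase. Of the 39 calls in fkh2delta, 27 held in all 15 other settings. Those lost in at least 1 were pre3, pre6, pre8, rpt1, rpt2, rpt6, rpn2, rpn3, ubc12, ubc14, ubc16 and ubp6. Without wild-type replicate 2 fewer proteasome subunit genes were higher and fewer E2 genes were lower. At an unadjusted p below 0.05 in limma, fewer of all probe sets were called in either direction as well. Among the calls lost in that setting, the differences of rpt6, rpt1 and rpt2 were 0.19, 0.18 and 0.23. Those of ubc16 and ubc14 were -0.50 and -0.34.

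**Figure D2:**
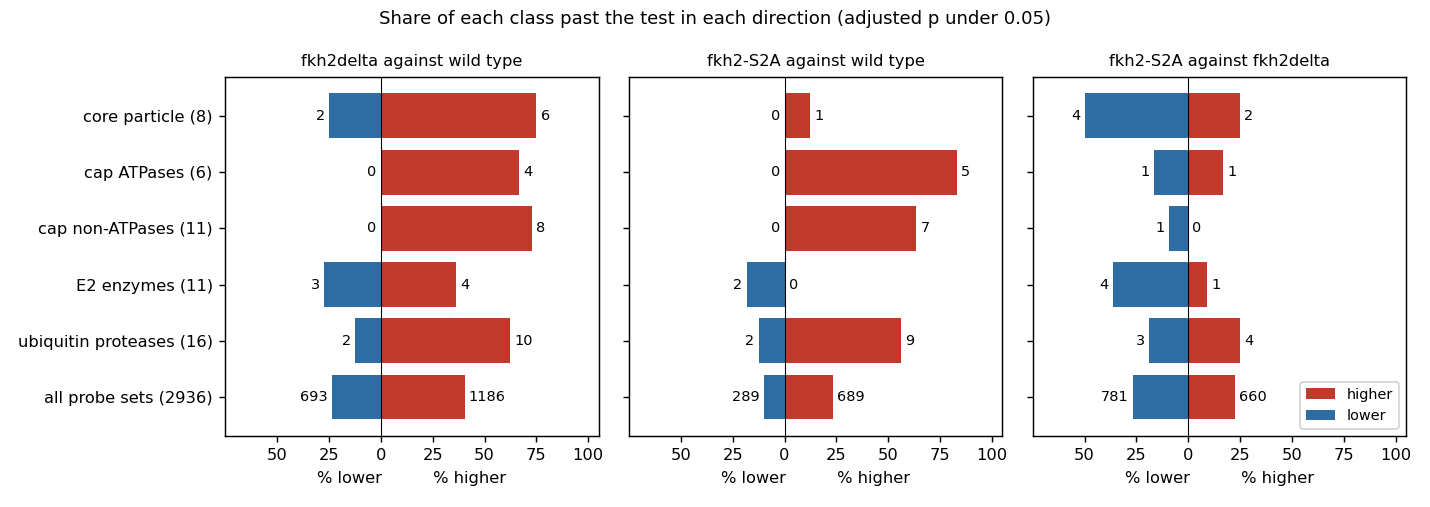
Share of the genes of each class, and of all probe sets, that passed the test higher (right) or lower (left) in each of 3 comparisons, in percent; the numbers beside the bars are counts and those in brackets are class sizes. The cap classes have 0 genes lower than wild type in either mutant, and the E2 class has 0 genes higher in fkh2-S2A.

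Whether the fkh2-S2A allele goes with a difference in these genes was asked against the same wild-type arrays. In fkh2-S2A 22 of the 52 genes rose and 4 fell, which is 42.3% and 7.69%, against 23.5% of all probe sets called higher and 9.84% called lower. Of the 52 genes 40 had arrays that did not overlap with wild type, against 67.1% of all probe sets. The median of the 52 genes was 0.20, against 0.04 over all probe sets. After median centring, with 560 (19.1%) of the 2936 probe sets higher and 498 lower, 17 of the 52 genes were higher and 6 lower. These counts turned on 1 array: without wild-type replicate 2, 6 genes were higher and 1 lower, and 9.78% of all probe sets passed, against 33.3% with every array. The wild-type array left in is then assumed to vary like the other groups. Without fkh2-S2A replicate 2, 11 genes were higher. The 2 comparisons with wild type share the wild-type arrays, so the values of a gene in them are not independent.

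In the core particle 1 of 8 genes rose in fkh2-S2A, which is 12.5%, against 23.5% of all probe sets. It was pup1 (0.34 ± 0.10, adjusted p = 0.0357), and that call was lost in 8 of 15 other settings. The median of the core genes was 0.07. No other core gene passed, with pts1 at 0.22 ± 0.09, pup2 at 0.19 ± 0.10 and pup3 at -0.24 ± 0.09. The remaining 4, pre6 (0.12 ± 0.10), pre3 (0.03 ± 0.10), pre10 (0.01 ± 0.10) and pre8 (-0.03 ± 0.10), were nearer to wild type.

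The cap genes were higher or did not pass in fkh2-S2A, with 12 of 17 called higher and 0 lower (limma; 0 at an unadjusted p below 0.05). Of all probe sets 23.5% were higher and 9.84% lower. Of the ATPase genes 5 of 6 rose, with a median of 0.51. All 6 had both fkh2-S2A arrays above both wild-type arrays. For 67.1% of all probe sets the arrays did not overlap, in either direction. The rise of rpt4 was 0.62 ± 0.13 (adjusted p = 0.00743). The gene rpt5 gave 10.08 and 10.25 in fkh2delta and 10.54 and 10.61 in fkh2-S2A, against 10.10 and 9.91 in wild type (0.57 ± 0.11 in fkh2-S2A, adjusted p = 0.00566). Its fkh2-S2A arrays were the 2 highest. For rpt6 the values were 11.51 and 11.71 in fkh2delta and 11.63 and 11.81 in fkh2-S2A, against 11.42 and 10.99 in wild type (0.52 ± 0.15 in fkh2-S2A). The genes rpt1 (0.50 ± 0.12) and rpt2 (0.38 ± 0.11) passed as well, and rpt3 (0.30 ± 0.10, adjusted p = 0.0504) did not. The rpt2 arrays read 12.49 and 12.50 in fkh2delta and 12.45 and 12.66 in fkh2-S2A, against 12.27 and 12.07 in wild type, with both mutants above wild type.

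All 6 ATPase genes were lower on wild-type replicate 2 than on replicate 1, with a median gap of -0.22, and without that replicate 0 of the 6 passed while their median was 0.33. In that setting the median of the 25 proteasome subunit genes was 0.24, against 0.33 with every array, and their 13 calls did not hold. With the trend with gene length removed, 6 ATPase genes and 7 other cap genes were higher, against 23.8% of all probe sets. After median centring 4 ATPase genes and 5 other cap genes were higher, against 19.1% of all probe sets.

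Of the other cap subunits 7 of 11 genes rose in fkh2-S2A, which is 63.6%, against 23.5% of all probe sets, and the class median was 0.39. Those that rose were rpn1302 (0.69 ± 0.16, adjusted p = 0.012), rpn7 (0.53 ± 0.10, adjusted p = 0.00649), rpn2 (0.47 ± 0.11), rpn3 (0.46 ± 0.13), rpn6 (0.40 ± 0.12), rpn9 (0.39 ± 0.11) and rpn12 (0.33 ± 0.11). The rpn12 call was lost in 9 of 15 other settings and the rpn6 call in 6. The values of rpn7 were 12.13 and 12.17 in fkh2delta and 12.02 and 12.17 in fkh2-S2A, against 11.65 and 11.48 in wild type. Those of rpn2 were 11.85 and 12.14 in fkh2delta and 12.06 and 12.03 in fkh2-S2A, against 11.57 and 11.58 in wild type, where both arrays were alike. For both genes the mutants overlapped each other and stood above wild type. The genes rpn8 (0.25 ± 0.10), rpn10 (0.17 ± 0.10), rpn11 (0.10 ± 0.09) and rpn1301 (-0.10 ± 0.10) did not pass.

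In fkh2-S2A 0 of the 11 E2 genes rose in limma (0 at an unadjusted p below 0.05) and 2 fell, ubc6 (-0.68 ± 0.13, adjusted p = 0.00538) and ubc7 (-0.58 ± 0.11, adjusted p = 0.00625). Those that fell are 18.2% of the class, against 23.5% of all probe sets called higher and 9.84% called lower. The gene ubc7 was the 1 member called in opposite directions in the mutants. The class median was -0.15. Differences of ubc14 (-0.29 ± 0.12), ubc16 (-0.27 ± 0.15), ubc11 (-0.21 ± 0.14), ubc15 (0.20 ± 0.11), ubc1 (-0.15 ± 0.10), ubc13 (-0.14 ± 0.10), ubc8 (0.09 ± 0.10), ubc12 (0.04 ± 0.16) and ubc4 (0.02 ± 0.09) did not pass.

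The ubiquitin-specific proteases held the highest rises in fkh2-S2A, with 9 of 16 genes higher, 2 lower and a median of 0.48. That is 56.2% higher and 12.5% lower, against 23.5% and 9.84% of all probe sets. The highest was ubp1 (1.12 ± 0.15, adjusted p = 0.00185, 2.17-fold), described with its array values for fkh2delta. The values of ubp5 were 9.52 and 9.78 in fkh2delta and 9.74 and 9.90 in fkh2-S2A, against 8.96 and 8.68 in wild type (1.00 ± 0.13 in fkh2-S2A). Those of ubp12 were 10.98 and 11.17 in fkh2delta and 11.17 and 11.24 in fkh2-S2A, against 10.42 and 10.07 in wild type (0.96 ± 0.13 in fkh2-S2A). Both genes had all 4 mutant values above wild type and overlapping between the mutants.

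The other rises were ubp15 (0.91 ± 0.10), ubp6 (0.76 ± 0.12), ubp2 (0.70 ± 0.12), ubp14 (0.65 ± 0.14), ubp10 (0.61 ± 0.20) and ubp13, now pan2 (0.34 ± 0.11). The ubp13 call was lost in 10 of 15 other settings, and the ubp10 call in 5, with a difference of 0.32 once fkh2-S2A replicate 1 was dropped. The falls were ubp11 (-0.47 ± 0.13) and ubp9 (-0.34 ± 0.11), and the ubp9 call was lost in 7 of 15 other settings. Differences of ubp4 (0.20 ± 0.11), ubp3 (0.20 ± 0.09), ubp8 (0.12 ± 0.11), ubp7 (0.01 ± 0.11) and ubp16 (-0.06 ± 0.11) did not pass. The 7 calls of fkh2-S2A that held in all 15 other settings were ubp1, ubp2, ubp5, ubp6, ubp12 and ubp15, all higher, and ubc7, lower.

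Gene length moved with the fkh2-S2A values. The ubp genes are long, with a median of 2659.5 bases in the reference annotation, against 1265 for the core genes, 1303 for the E2 genes and 1872 over all probe sets. Across the 52 genes the fkh2-S2A difference had a Pearson correlation of 0.42 and a Spearman correlation of 0.41 with log2 gene length, against 0.10 and 0.08 for the fkh2delta difference; the points share the same arrays. With the length trend removed, 8 ubp genes were higher and 2 lower in fkh2-S2A, with a median of 0.40, against 0.48 as deposited. Of the 2936 probe sets 700 (23.8%) were then higher and 313 lower, with a median of 0.08, against 0.04 as deposited.

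**Figure D3:**
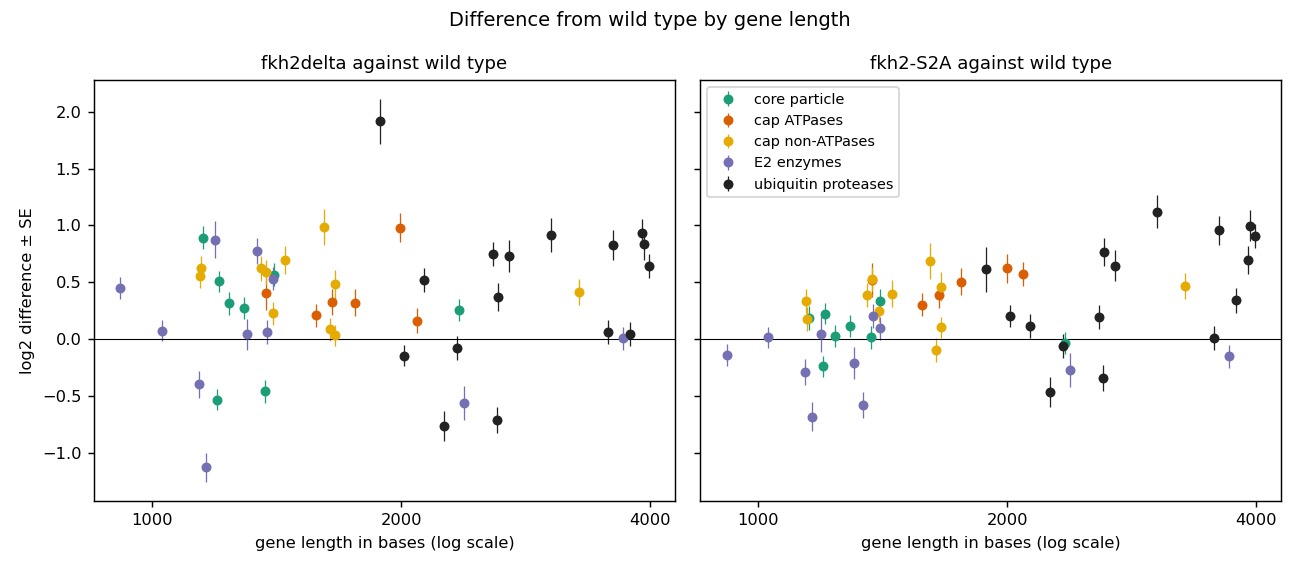
Log2 difference from wild type, with its SE, against gene length in bases on a log scale for each of the 52 genes, for fkh2delta (left) and fkh2-S2A (right), coloured by class. In fkh2-S2A the 7 longest ubp genes lie between 0.01 and 1.12, and the correlation with log2 length is 0.42, against 0.10 in fkh2delta.

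Set directly against fkh2delta, 8 of the 52 genes were higher in fkh2-S2A and 13 were lower, which is 15.4% and 25.0%, against 22.5% and 26.6% of all probe sets. The share that passed was 40.4%, against 49.1% of all probe sets. For 36 of the 52 the arrays of the mutants did not overlap, against 78.2% of all probe sets. Median centring gave 9 higher and 9 lower, against 777 and 728 of the 2936 probe sets. Removing the length trend gave 5 higher and 13 lower, against 655 and 776 of them. Without fkh2delta replicate 1 or 2 the higher genes numbered 2, and without fkh2-S2A replicate 2 they numbered 1; without fkh2delta replicate 2 and fkh2-S2A replicate 1 in turn, 7 and 8 genes were lower. This comparison shares its arrays with the other 2. In the core 6 of 8 genes passed, but 2 of 8 without fkh2delta replicate 1, without fkh2delta replicate 2, with the replicate block or with p-values adjusted over all probe sets except controls, and 3 of 8 after median centring or without either fkh2-S2A replicate. Of the 6, pup2 (-0.71 ± 0.10, adjusted p = 0.000597), pts1 (-0.29 ± 0.09), pre8 (-0.29 ± 0.10) and pre3 (-0.29 ± 0.10) were lower in fkh2-S2A, and pre10 (0.47 ± 0.10) and pup3 (0.29 ± 0.09) were higher. Of 17 cap genes 3 passed: rpn10 (-0.45 ± 0.10) and rpt4 (-0.36 ± 0.13) were lower and rpt5 (0.41 ± 0.11) higher. The other 14 cap genes did not pass, with differences from -0.30 for rpn6 to 0.19 for rpt1, and SEs of 0.09 to 0.16.

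The widest difference between the mutants was in ubc7 (-1.35 ± 0.11, adjusted p = 3.16e-05). Next came ubp10 (-1.30 ± 0.20, adjusted p = 0.000729). Further E2 genes lower in fkh2-S2A were ubc12 (-0.83 ± 0.16, but -0.26 and not past the test after quantile normalization), ubc13 (-0.59 ± 0.10) and ubc8 (-0.44 ± 0.10), while ubc6 was higher (0.44 ± 0.13). Among the ubp genes ubp4 (-0.55 ± 0.11) and ubp8 (-0.40 ± 0.11) were lower, and ubp6 (0.39 ± 0.12), ubp9 (0.37 ± 0.11), ubp3 (0.35 ± 0.09) and ubp13 (0.30 ± 0.11) were higher. With the length trend removed 1 ubp gene was higher and 4 were lower, against 655 and 776 of the 2936 probe sets. The calls of pre10, pup2, rpn10, ubc7, ubc13, ubp4 and ubp10 held in all 15 other settings, and the other 14 were lost in at least 1.

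**Figure D4:**
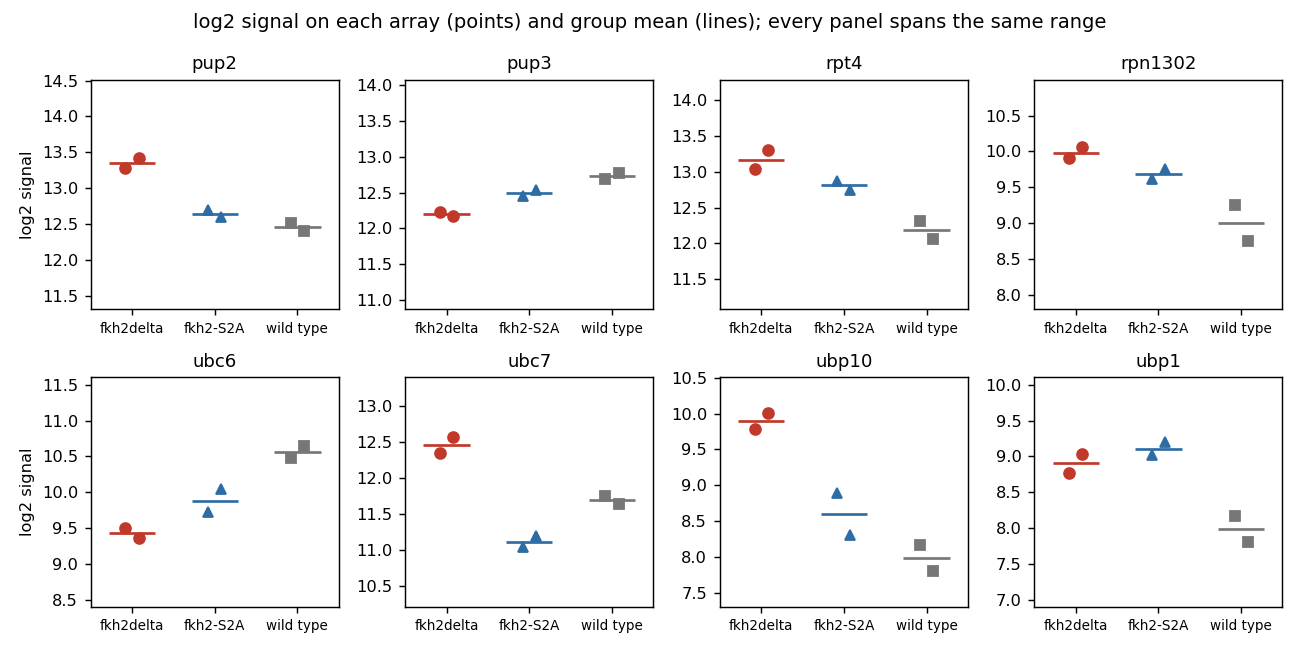
Log2 signal of 8 genes on each array (points) with the mean of each genotype (lines); all panels span the same range of log2 units, and levels are not comparable between panels. The fkh2delta arrays stand apart for pup2 and ubp10, ubc7 lies on opposite sides of wild type in the mutants, and ubp1 lies at 8.77 to 9.20 in the mutants, against 8.17 and 7.81 in wild type.

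Other genes of the pathway were read from 4 lists, whose shares stand against 40.4% of all probe sets higher and 23.6% lower in fkh2delta and 23.5% higher and 9.84% lower in fkh2-S2A. Of 19 genes for ubiquitin, E1 enzymes and the conjugation of Nedd8 and SUMO, 9 rose and 2 fell in fkh2delta, which is 47.4% and 10.5%, with a median of 0.14 against 0.16 over all probe sets. In fkh2-S2A 2 of them rose, which is 10.5% (median -0.06). The widest differences were those of ned8 itself, at 11.96 and 12.13 in fkh2delta and 10.94 and 10.50 in fkh2-S2A, against 11.05 and 10.91 in wild type (1.06 ± 0.15 in fkh2delta), the Nedd8 protease gene nep2 (-0.99 ± 0.15) and the SUMO ligase gene nse2 (0.67 ± 0.10). A further 2 genes of this list were picked after their values were seen, because their products work with members. The ubiquitin E1 gene uba1 changed by -0.64 ± 0.10 in fkh2delta, and mms2, whose product is the partner of Ubc13, rose by 0.54 ± 0.12.

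Of 30 genes for E3 ligases and cullin complexes 13 rose and 8 fell in fkh2delta, which is 43.3% and 26.7% (median 0.19). In fkh2-S2A 8 rose and 5 fell, which is 26.7% and 16.7% (median -0.01). The shares of higher genes were near those of all probe sets in both. The widest differences in fkh2delta were meu27 (1.62 ± 0.12), a meiotically upregulated gene whose place among the ligases is uncertain and which lay below background on 1 wild-type array, the F-box gene pof1 (-1.25 ± 0.14) and the chain-elongation ligase gene ufd2 (1.01 ± 0.11). The ligase genes hrd1 (0.11 ± 0.12) and doa10 (-0.13 ± 0.10), also chosen after their values were seen because their products work with Ubc6 and Ubc7 in Saccharomyces cerevisiae, did not pass in fkh2delta.

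Of 21 genes for proteasome partners, shuttle factors and the Cdc48 segregase 8 rose and 3 fell in fkh2delta, which is 38.1% and 14.3%, with a median of 0.16 like that of all probe sets. In fkh2-S2A 4 rose and 1 fell, which is 19.0% and 4.76% (median 0.16, against 0.04 over all probe sets). This list holds the metacaspase gene pca1, which is no proteasome partner, and 3 subunit genes whose symbols fall outside the naming rule. Of these the lid gene dss1 (0.80 ± 0.21) and the core gene pam1 (0.76 ± 0.11) rose in fkh2delta, and mts4, the gene of the large scaffold subunit Rpn1, did not pass (-0.03 ± 0.10). The genes pam1 and mts4 were picked after their values were seen. The widest differences were otu1 (-1.26 ± 0.15 in fkh2delta), a deubiquitinase gene, ubx3 (0.83 ± 0.12 in fkh2-S2A) and dss1. Of 6 genes of the COP9 signalosome, which removes Nedd8 from cullins, 5 rose in fkh2delta (median 0.52), led by csn71 (1.48 ± 0.11), csn2 (0.90 ± 0.11) and csn3 (0.59 ± 0.13), and 2 rose and 1 fell in fkh2-S2A (median -0.10).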

How the data were processed

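Each sample is 1 Affymetrix array of total RNA labelled with biotin, per the labels' protocols. The deposited table gives each probe set a log2 value, with the base read from how high the values reach; the authors' steps of summary, correction and normalization were not given in the sources used here. The values were used as deposited. Of 10928 probe sets, 2936 were matched to S. pombe genes of assembly ASM294v3 through the platform annotation (3 by symbol), 2601 were listed without an S. pombe gene and 5177 were unnamed. For each array, background was set at the 95th percentile of those 2601. Gene lengths came from the same assembly and no coordinates or sequences were used.

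Tests used limma 3.58.1 in R 4.3.3: 1 model over the 6 arrays with genotype as the sole term, 3 residual and 5.74 prior degrees of freedom, two-sided tests, and the Benjamini-Hochberg threshold 0.05 over 2936 probe sets, separately for the 3 comparisons. The steps were also run on simulated data with independent noise on each array. Those data held no trend with gene length and no shift between arrays, so they do not speak to either. The number of arrays limits the precision. Gene classes follow the symbols. Values on every array are given for the 3 widest called differences per class and comparison with wild type, and each other list names its 3 widest called differences. Outside that rule, array values are also given for fkh2, rpn9, rpn1301, ubc4, ned8 and the probe set of rpn501 and rpn502. The members and lists were chosen with earlier results of these data known.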

Additional observations from a re-analysis of the deposited data

How the results depend on the processing

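The counts of the 52 genes were recomputed under 15 other settings for each comparison: quantile normalization, median centring, removal of the length trend, both of the last together (chosen after seeing the data), no dim probe sets, all probe sets except controls, eBayes with a trend, robust eBayes, the compared genotypes alone, the replicate block, array weights, and leaving out each of 4 arrays. Outside the left-out arrays, the genes higher in fkh2delta than in wild type ran from 25 to 33 (32 as reported) and the lower ones from 7 to 8 (7). For fkh2-S2A against wild type they ran from 17 to 25 (22) and from 3 to 6 (4). For fkh2-S2A against fkh2delta they ran from 5 to 9 (8) and from 9 to 15 (13), with 5 higher once the length trend was removed. Leaving out 1 array gave 24 to 30 higher and 5 to 7 lower in fkh2delta, 6 to 21 higher and 1 to 5 lower in fkh2-S2A, and 1 to 8 higher and 7 to 11 lower between the mutants. The lowest count between the mutants came without fkh2-S2A replicate 2, and the fewest lower genes, 7, without fkh2delta replicate 2. None of the called genes turned its sign in these settings. With the replicate block 29 genes were higher in fkh2delta, 19 in fkh2-S2A and 6 between the mutants. Calls over all probe sets moved with the settings as well, so these ranges do not concern the members alone. With quantile normalization 32.9% of all probe sets were higher in fkh2delta, 15.1% in fkh2-S2A and 27.5% between the mutants. For eBayes with a trend the shares were 42.8%, 25% and 25.3%, against 40.4%, 23.5% and 22.5% as reported. Arrays with the same number shared only that number: the correlations of their deviations from the genotype means were -0.18, -0.085 and -0.27. No member has a further probe set, so that alternative was not run. Each member lay above background on all 6 arrays.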
